A study of Mus musculus with 24 samples.

Results

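The genes described here encode the nuclear subunits of the oxidative phosphorylation machinery. They were taken by symbol: every gene of the count files whose name starts with Nduf, Uqcr, Cox4i, Cox5, Cox6, Cox7, Cox8 or Atp5. That gave 85 of the 22609 gene symbols, of which 83 had enough reads to be tested. The remaining 2 were Ndufs5, with 2 reads summed over all 24 libraries, and Cox8b, with 8 reads. The name rule also takes in 4 Ndufaf genes, which encode assembly factors of complex I, and Atp5s and Atp5sl, which are named for ATP synthase without encoding one of its subunits. No symbol of the files had the mt- prefix, so the subunits encoded by mitochondrial DNA were not analysed here.

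The cells were E14TG2a mouse embryonic stem cells, a line of the 129/Ola strain, grown without feeders in serum with the cytokine LIF. That medium, here called the mESC state, was kept for 5 groups: untransfected control cells, and cells stably carrying a hairpin against Ring1b (gene symbol Rnf2), Med12 or Cdk8, or the shNMC hairpin, which has no mammalian target. Another 3 groups, with shNMC, shMed12 or shCdk8, were grown for 24 h without LIF in 1e-06 M all-trans retinoic acid (RA). Each of the 8 groups had 3 poly-A RNA-seq libraries. The labels give neither the number of hairpin sequences or clones behind a group nor whether replicates were separate cultures, so p-values measure only the spread between these libraries.

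Oxidative phosphorylation passes electrons from NADH (complex I) and succinate (complex II) through complex III and cytochrome c to oxygen at complex IV, pumping protons across the inner mitochondrial membrane. ATP synthase lets the protons flow back and makes ATP. Complex I consists of a conserved catalytic core and many supernumerary subunits around it, and several complex IV subunits exist in a common form and in forms known from muscle, lung or testis. Embryonic stem cells are also known for active glycolysis, whose genes are not part of this set.

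The depth, in units of 1e+06 reads counted to genes, was 27.4 to 34.1 for the 6 libraries of the untransfected and shRing1b groups and 37.8 to 57.3 for the other 18. Those 6 libraries also stood apart in alignments counted as multiple, which made up 20 to 21.7% of everything the files count, against 44.1 to 49.1% in the other 18. The targeted genes were lower in their groups. Med12 stood at 41.7 ± 5.8 counts per 1e+06 gene counts (CPM) with shMed12 and 133 ± 5.5 with shNMC (SD, n = 3), and Cdk8 at 12.8 with shCdk8 and 53.4 with shNMC on average. Rnf2 was 52.4, 64.2 and 207 CPM in shRing1b replicates 1 to 3, against 221 to 303 CPM in the untransfected libraries, so the third of these libraries does not show the knockdown its label names. Summed pluripotency markers (Pou5f1, Nanog, Sox2 and 7 others) reached 5040 to 5160 CPM with shNMC in the mESC state, so the labelled cell type had its markers.

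Reads of 50 bases cannot always be assigned to these genes, because many of them have near-identical copies elsewhere in the genome. Of the members matched to the GENCODE M21 annotation (84 of 85), Atp5l, Ndufb4, Atp5g2 and Cox7c had every 50-base stretch of their coding sequence repeated in another annotated gene. Ndufab1 and Atp5g1 had 99.8% and 99.7% of the stretches repeated. Ndufs5 had 72.5% and Atp5j2 15.8%. Over all stretches of the transcripts, untranslated parts included, the repeated share was smaller. It was 68.5% for Atp5l, 37.0% for Ndufb4, 36.7% for Atp5g2, 23.0% for Cox7c, 11.1% for Atp5g1 and 9.53% for Ndufab1. The coding starts below show members whose first 50 bases are repeated exactly in annotated pseudogenes, followed by Atp5g3, Cox7a2 and Atp5j2, whose first 50 bases are found in no other annotated gene. Capitals mark the start codon.
Atp5l: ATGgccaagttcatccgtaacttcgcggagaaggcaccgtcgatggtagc
Ndufb4: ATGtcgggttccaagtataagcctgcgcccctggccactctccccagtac
Atp5g2: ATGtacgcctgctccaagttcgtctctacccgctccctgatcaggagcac
Cox7c: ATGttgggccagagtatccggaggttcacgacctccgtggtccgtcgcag
Ndufs5: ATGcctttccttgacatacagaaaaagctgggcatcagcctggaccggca
Atp5g3: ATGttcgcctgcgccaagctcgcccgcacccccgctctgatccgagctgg
Cox7a2: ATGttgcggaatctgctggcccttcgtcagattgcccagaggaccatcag
Atp5j2: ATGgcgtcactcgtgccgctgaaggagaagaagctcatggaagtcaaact

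Levels were low in the genes whose coding sequence was repeated fully or nearly so. Per kilobase of exon, the mean over all 24 libraries was 0.70 CPM for Atp5g1, 0.76 for Ndufab1 and 1.07 to 11.2 for the 4 genes with every coding stretch repeated (median 1.23). The 50 members with no repeated coding stretch had a median of 74.7 CPM per kilobase, and the 28 members repeated in part a median of 72.3. Among the latter, Ndufs5, a complex I subunit with 72.5% of its coding stretches repeated, had 2 reads in all. Uqcrb, at 72.9%, stood at 60.8 CPM per kilobase, Ndufa12, at 69.85%, at 11.9 and Atp5h, at 67.05%, at 49.8. The c-ring of ATP synthase is encoded by Atp5g1, Atp5g2 and Atp5g3, which give the same mature protein. In shNMC cells of the mESC state their levels were 3.96 ± 0.466, 0.975 ± 0.171 and 330 ± 45.2 CPM (SD, n = 3). For the genes with nearly all coding stretches repeated, low expression and reads lost to repeated sequence cannot be told apart in these counts, so their changes are uncertain.

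**Figure D1:**
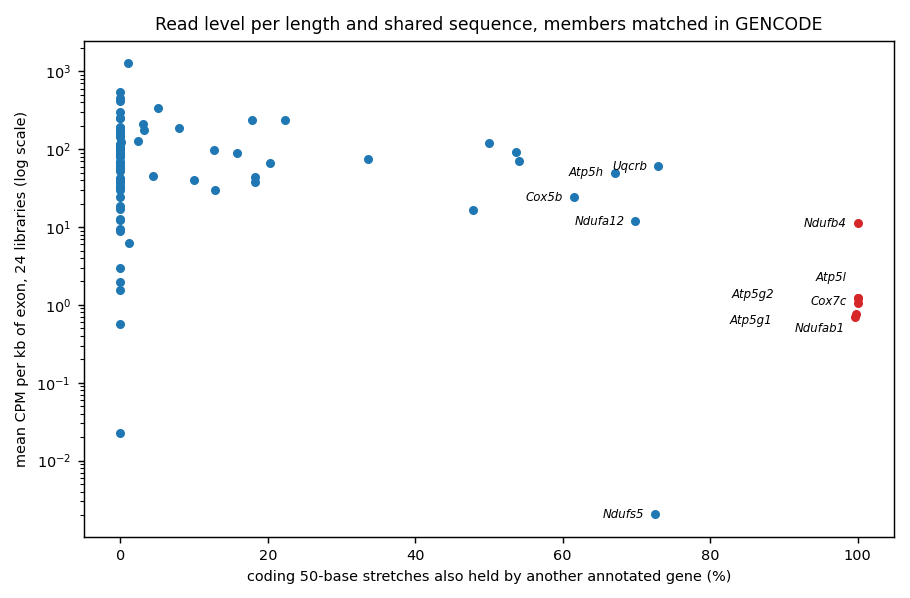
Each point is a matched member; the horizontal axis is the percent of its 50-base coding stretches that another annotated gene also holds, and the vertical axis (log scale) its mean CPM per kilobase of exon over 24 libraries. The 6 red points at over 99% lie between 0.70 and 11.2 CPM per kilobase. Ndufs5, at 72.5%, is the lowest point, while Uqcrb, at 72.9%, lies at 60.8 CPM per kilobase.

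Over the 84 matched members the levels spanned a wide range. The highest per kilobase were Atp5b, the catalytic beta subunit of ATP synthase, at 1274 CPM, the complex IV subunit Cox4i1 at 548, Atp5g3 at 459, the alpha subunit Atp5a1 at 422 and Cox5a at 335. The median was 67.2 CPM per kilobase, 25 members exceeded 100, and 11 lay under 5, among them Atp5g1, Atp5g2, Atp5l, Cox7c and Ndufab1 with their repeated coding sequence. Summed over all members the level stayed narrow: 11383 to 12152 CPM with shNMC, 10583 to 11095 with shMed12 and 10587 to 12032 with shCdk8 in the mESC state. In RA the sums were 9906 to 11272, 9812 to 10172 and 9263 to 10279 CPM. These sums are TMM-scaled. Of the unscaled gene counts, the members made up 1 to 1.25% over these 18 libraries.

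Many nuclear respiratory genes are known targets of the transcription factor NRF1, whose site, the 10 letters in capitals in the sequences that follow, reads the same on both strands. These letters occurred in the 250 bases before the start site of 5 of the 71 members matched in RefSeq (GRCm38.p6), or 7.04%. They occurred in 0.782% of all 32851 promoters of that table. For each member the first listed promoter was taken. For 57 of the 71, the first bases after the start site were found in the gene's own GENCODE transcripts. The letters CCGGAAGT, a GABP site, were found on either strand in 4.23% of the members and 2.88% of all promoters, and CCAAT in 45.1% and 33.8%. The 5 NRF1 matches are shown with their surroundings, with the match in capitals and the distance from its first base to the start site given in bases.
Atp5g2, chr15:102671070-102671099, minus strand, 42: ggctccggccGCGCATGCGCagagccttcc
Atp5k, chr5:108434430-108434459, minus strand, 50: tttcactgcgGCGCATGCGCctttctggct
Cox6a1, chr5:115349101-115349130, minus strand, 162: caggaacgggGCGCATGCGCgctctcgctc
Ndufa11, chr17:56717692-56717721, plus strand, 60: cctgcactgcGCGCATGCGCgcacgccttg
Ndufaf4, chr4:24897960-24897989, plus strand, 113: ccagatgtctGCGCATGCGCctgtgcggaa

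With knockdown of Med12, a subunit of the kinase module of the Mediator complex, some members were lower in the mESC state. Their share was near that over all genes tested. The lower members included the NADH-oxidizing core subunit Ndufv1, the iron-sulfur core subunit Ndufs1, the membrane-arm subunits Ndufb8 and Ndufb10 and the complex III core protein Uqcrc1. Changes were modest in size, between a log2 change of -0.24 and -0.51 for the common subunits that fell. Of the 83 members 2 rose and 16 fell (edgeR quasi-likelihood test, Benjamini-Hochberg adjusted p under 0.05), or 21.7%, beside 40.5% of all genes tested (20.6% higher, 19.9% lower). Falls made up 19.3% of the members, near the background of 19.9%. Their median log2 change was -0.12, against -0.01 over all genes. In bulk RNA, less RNA per cell and fewer cells of a type cannot be told apart.

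Ndufv1 stood at 203, 208 and 230 CPM in the shNMC replicates and 141, 139 and 170 CPM with shMed12, without overlap. Its log2 change was -0.51 (SE 0.10, edgeR adjusted p = 0.000197). Ndufb8, an accessory subunit of the membrane arm, went from 156, 161 and 168 CPM to 121, 112 and 128 CPM, a log2 change of -0.43 (SE 0.07, edgeR adjusted p = 4.71e-05). Both genes kept the call in each alternative analysis. Ndufb10 measured 78.9, 82.9 and 82.6 CPM with shNMC and 63.1, 55.8 and 60.3 with shMed12. Uqcrc1 measured 317, 332 and 355 against 252, 237 and 281 CPM, and Ndufs1 328, 350 and 300 against 254, 259 and 248 CPM. In all of these the groups were apart, and the log2 changes were -0.45, -0.39 and -0.36 in that order (SE 0.10, 0.08 and 0.08, edgeR adjusted p = 0.00116, 0.00077 and 0.00164).

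**Figure D2:**
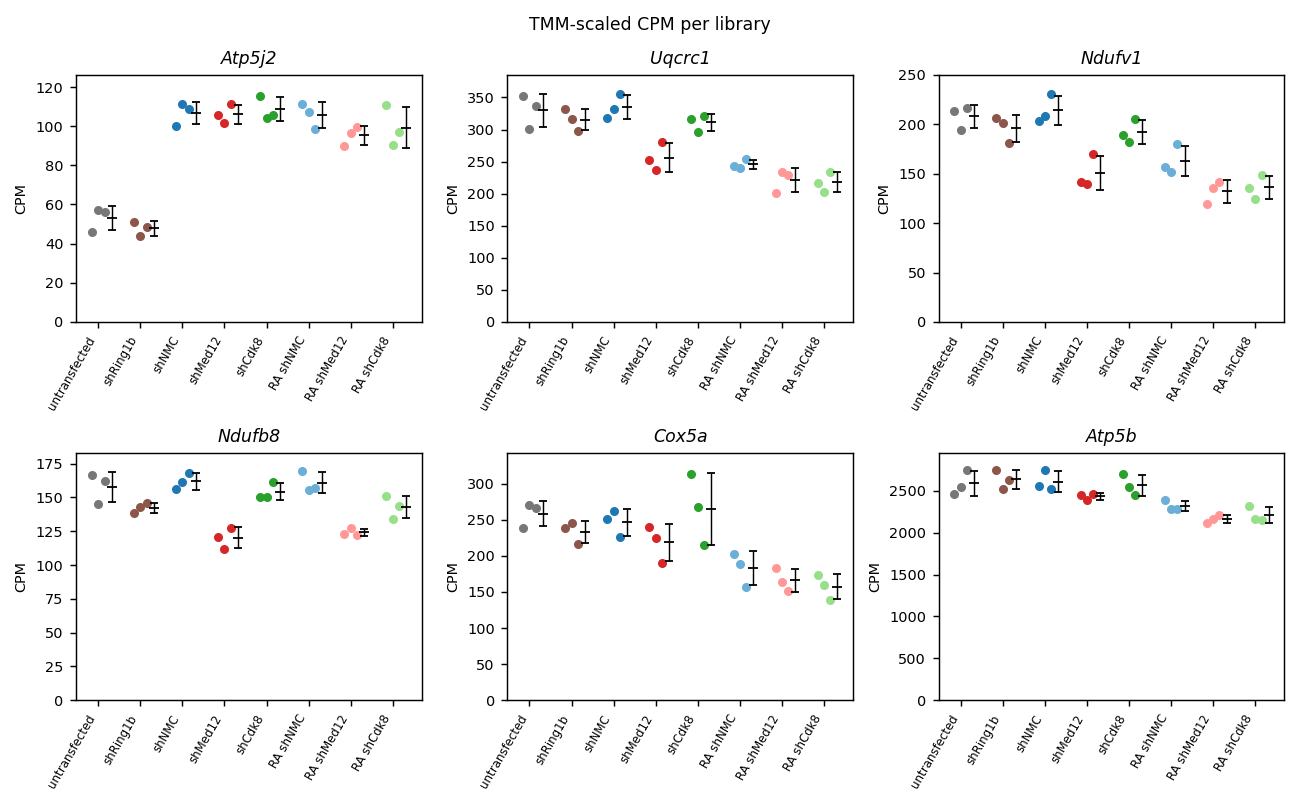
CPM in each of the 24 libraries (points, 3 per group) with the group mean and SD (bar) for Atp5j2, Uqcrc1, Ndufv1, Ndufb8, Cox5a and Atp5b. In the mESC state Uqcrc1, Ndufv1 and Ndufb8 lie lower with shMed12 than with shNMC, and Atp5j2 is at 43.9 to 57.0 CPM in the untransfected and shRing1b libraries and at 90.1 to 116 CPM elsewhere.

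The counts by complex stand beside 19.9% of all genes called lower and 20.6% called higher in this comparison. In complex I, 3 of 7 core genes fell (Ndufs1, Ndufs3 and Ndufv1). Of 28 tested supernumerary genes 5 fell (Ndufa9, Ndufb4, Ndufb5, Ndufb8 and Ndufb10) and 1 rose. In complex III, 3 of 8 fell (Uqcrc1, Uqcrc2 and Uqcr10) and 1 rose. Of 10 common complex IV subunits only Cox6a1 fell (log2 change -0.25, edgeR adjusted p = 0.0461), and it lost the call without any 1 of the 6 libraries. None of the 5 genes of the F1 head of ATP synthase passed the test, and of 10 stalk and membrane genes 1 fell, Atp5o, which links the head to the stalk. The highest members hardly moved: Atp5b was 2609 ± 121 CPM with shNMC and 2432 ± 40.1 with shMed12, and Cox4i1 407 ± 25.4 and 426 ± 35.4 (SD, n = 3).

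The 2 rises were Ndufab1, the mitochondrial acyl carrier protein, and Uqcr11, a small complex III subunit. Ndufab1 had a log2 change of 0.72 (SE 0.24, edgeR adjusted p = 0.0218), with 99.8% of its coding stretches repeated elsewhere. Uqcr11 was 27.0, 30.2 and 28.0 CPM with shNMC and 36.4, 32.1 and 42.1 with shMed12, a log2 change of 0.38 (SE 0.12, edgeR adjusted p = 0.0192). It lost the call without shMed12 replicate 3 or without shNMC replicate 1, with an edgeR adjusted p of up to 0.0955. Ndufb4, at -0.48 (edgeR adjusted p = 0.0155), is among the genes with every coding stretch repeated. It lost the call on leaving out shMed12 replicate 2, shMed12 replicate 3 or shNMC replicate 1 (edgeR adjusted p up to 0.0786). Leaving out 1 library at a time left 10 to 15 members called, with 10 without shNMC replicate 1 and 11 without shMed12 replicate 2. A fit of these groups alone called 29, a count given here without the share of all genes in that fit. It shows only that the number of calls moved, not a stronger change of the members.

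Under RA, some members were again lower in shMed12 than in shNMC cells, with a share of falls near that over all genes. Of the members 3 rose and 17 fell, 24.1% of those tested beside 41.9% of all genes (21.3% higher, 20.6% lower). The median log2 change was -0.14, against 0.00 over all genes. Without RA shMed12 replicate 3 the count was 13. In complex I, 5 of 7 core genes (among them Ndufs1, Ndufs3, Ndufs8 and Ndufv1) and 7 of 28 supernumerary genes fell. No complex III gene and no common complex IV gene fell. The falls of the mESC state and of RA, 16 and 17 genes, shared 11, which is 68.8% of the first list and 64.7% of the second: Atp5o, Cox6a2, Cox8c, Ndufa9, Ndufb10, Ndufb4, Ndufb5, Ndufb8, Ndufs1, Ndufs3 and Ndufv1. The RA comparison uses other libraries throughout. The overlap over all genes was not counted, so these shares are not shown to be particular to the members.

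Ndufb8 was at 170, 156 and 157 CPM in RA shNMC and 123, 127 and 122 in RA shMed12, a log2 change of -0.37 (SE 0.07, edgeR adjusted p = 0.000226). Ndufaf4, which helps to assemble complex I, was at 66.3, 62.9 and 55.8 CPM in RA shNMC and 44.8, 36.0 and 41.6 in RA shMed12. Its log2 change was -0.59 (SE 0.14, edgeR adjusted p = 0.00179). In the mESC state the same gene had overlapping groups, 67.6 to 84.3 CPM with shNMC and 57.0 to 74.3 with shMed12. Atp5sl rose, from 24.7, 22.4 and 24.2 to 30.9, 32.3 and 30.4 CPM, a log2 change of 0.39 (SE 0.11, edgeR adjusted p = 0.00647). Ndufv1 fell by 0.30 on the log2 scale (edgeR adjusted p = 0.0146), a call that was lost without RA shMed12 replicate 1 or RA shNMC replicate 3 (up to 0.0572).

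Whether Med12 knockdown acted differently in the mESC state and in RA was tested directly. None of the 83 members passed (edgeR, adjusted p under 0.05), against 5.04% of all genes (1.74% higher, 3.3% lower). At an unadjusted p under 0.05 there were 2 members, and DESeq2 also called 0. The apparent differences between the states, Ndufaf4 among them, were therefore not shown to differ.

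Cell identity markers moved in the same libraries. Summed trophectoderm markers rose from 17.6 to 23.3 CPM with shNMC to 575 to 748 with shMed12, and from 36.1 to 48.2 to 711 to 934 in RA, with all 9 tested genes of that list passing the test in the mESC state. Summed fibroblast markers went from 16.6 to 19.4 to 349 to 394 CPM, with 7 of 9 rising. Summed pluripotency markers went from 5040 to 5160 to 2513 to 2780 CPM, with 8 of 10 falling. Their part in the lower values of some members was not tested.

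**Figure D3:**
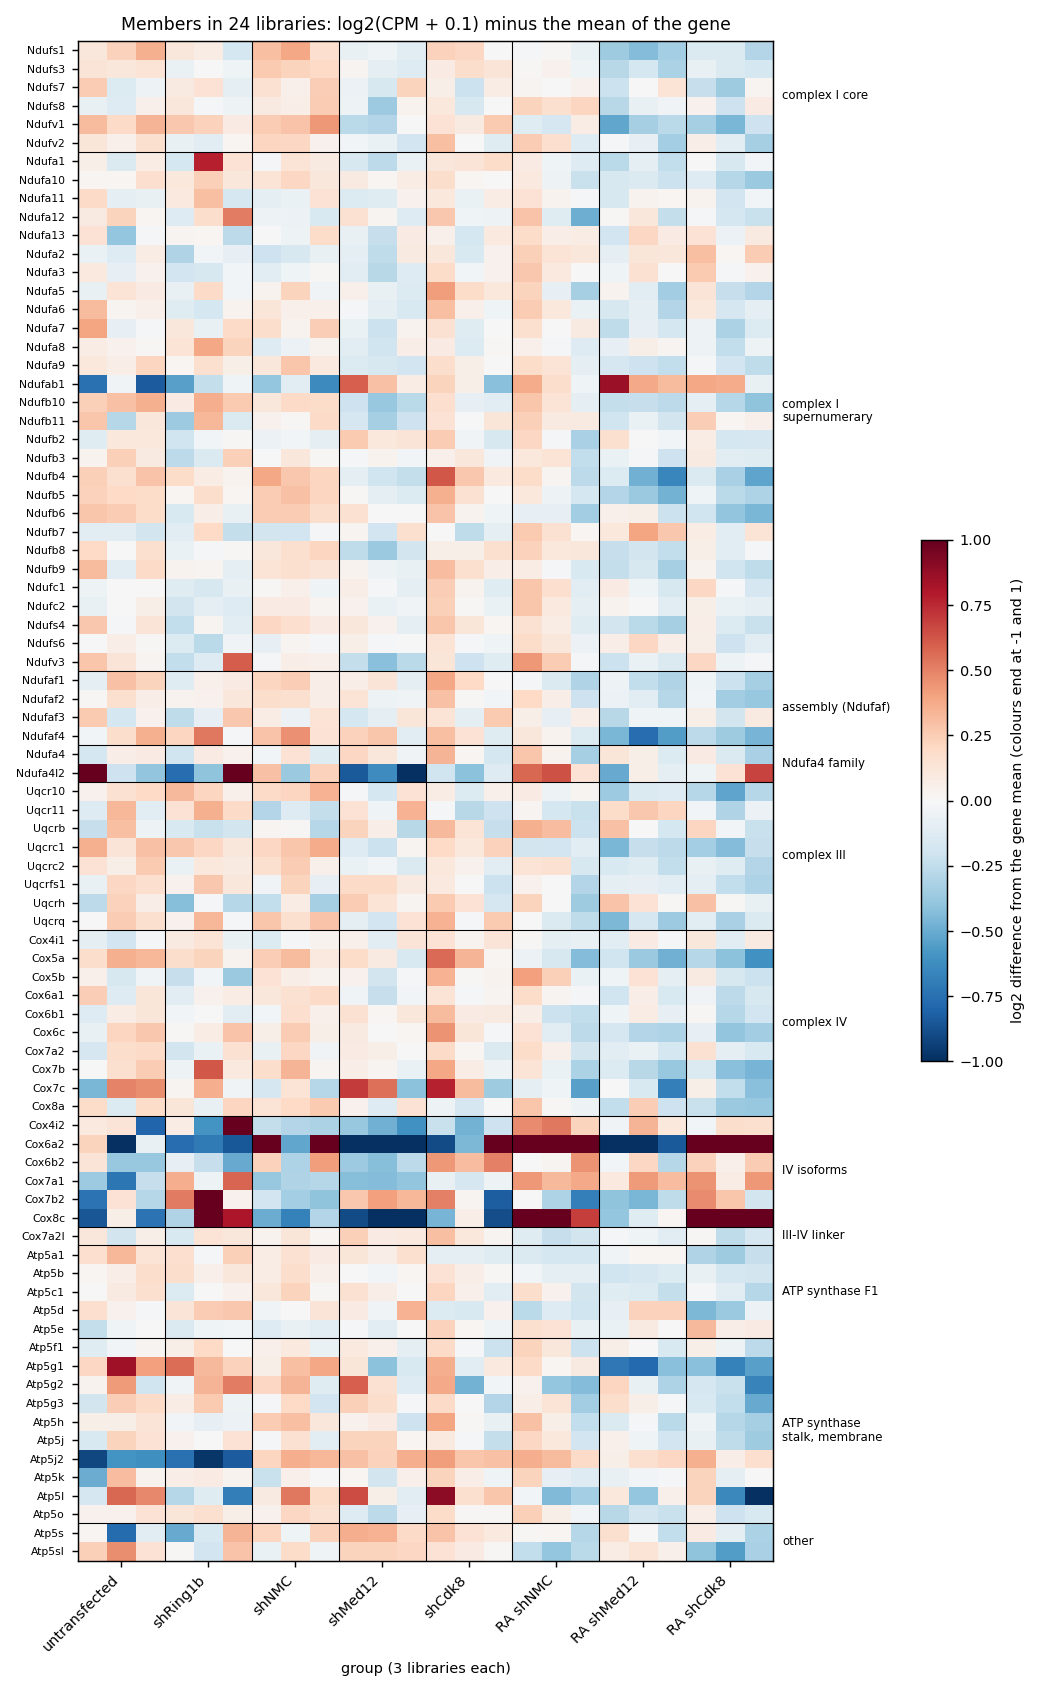
Rows are 82 tested members by role and columns the 24 libraries in 8 groups of 3, coloured by the difference of log2(CPM + 0.1) from the mean of the gene, ending at -1 and 1. Most rows stay pale, and the darker cells belong mainly to Atp5j2 in the first 6 columns, the complex IV tissue isoforms, and the low-level genes with repeated sequence.

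Knockdown of Cdk8, the kinase of the same Mediator module, was followed by few changes in these genes. In the mESC state 1 member fell and none rose, 1.2% of those tested beside 3.66% of all genes (2.24% higher, 1.42% lower). DESeq2 called 2 and a fit of these groups alone called 3, both given without the share of all genes. The median log2 change was -0.01. Ndufv1 was at 182 to 205 CPM with shCdk8 and 203 to 230 with shNMC, and Uqcrc1 at 296 to 322 and 317 to 355 CPM, and neither passed the test.

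In RA 5 members fell and none rose, 6.02% beside 7.73% of all genes (4.1% higher, 3.64% lower). They included Uqcr10 (log2 -0.38, edgeR adjusted p = 0.0196), Ndufb10 (-0.37, 0.0269), Cox8a (-0.41, 0.0424) and Atp5g1 (-0.67, 0.0343). These 4 lost the call when 1 library was left out: Uqcr10 without RA shCdk8 replicate 2 or RA shNMC replicate 1, and the rest without 4 to 6 of the 6 libraries. Leaving out 1 library gave 1 to 7 calls, with 1 without RA shCdk8 replicate 2 or RA shNMC replicate 1, 2 without RA shCdk8 replicate 3 or RA shNMC replicate 2, and 3 without RA shCdk8 replicate 1.

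The RA replicates with equal numbers deviated together, and a fit of only these groups with the replicate number as a block called 45 members (1 higher, 44 lower), or 54.2%, beside 50% of all genes in that fit. The median change was -0.135 on the log2 scale and 72 of the 83 members had a value below 0. Summed pluripotency markers were 1177 to 1458 CPM in RA shCdk8 and 1686 to 1969 in RA shNMC, with 7 of 10 falling. Fibroblast markers were 55.8 to 59.0 against 42.7 to 43.6 CPM, with 3 of 9 rising. Their part in the members' lower values was not tested. The interaction of shCdk8 with RA was passed by 0 members, also at an unadjusted p under 0.05 and by DESeq2, beside 0.0369% of all genes (0.0307% higher, 0.00614% lower).

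**Figure D4:**
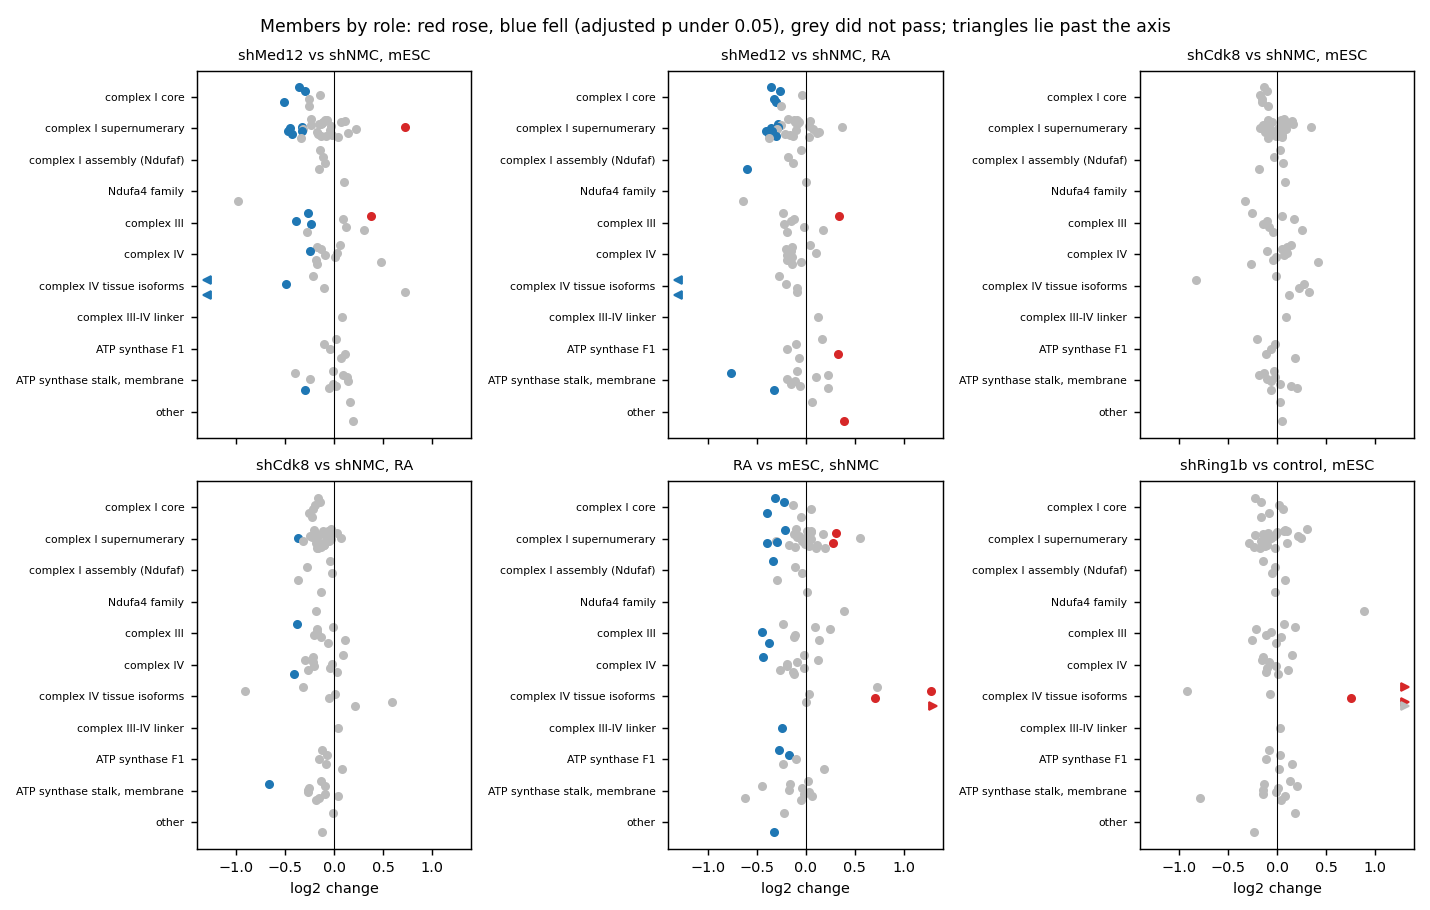
Log2 changes of 82 tested members in 6 comparisons, by role; red rose, blue fell and grey did not pass edgeR's test at an adjusted p under 0.05, and triangles lie beyond the axis limit of 1.3. Complex I has the most points, and with shMed12 some of them are blue in both states. Of all genes, 19.9% were called lower with shMed12 in the mESC state and 20.6% in RA. In shNMC cells 3 of 6 complex IV tissue isoforms rose with RA, where 27.3% of all genes were called higher.

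RA with removal of LIF starts differentiation. In TMM-scaled values of shNMC cells, some central subunits of each complex were lower with it and tissue isoforms of complex IV were higher. Of the 83 members 5 rose and 14 fell, 22.9% beside 51.4% of all genes (27.3% higher, 24.1% lower). The median log2 change was -0.05, against 0.02 over all genes. These changes depend on the scaling, whose TMM factors were 0.899 to 0.952 in the mESC state and 1.086 to 1.111 in RA. Of the unscaled gene counts, the members made up at most 1.093% in the shNMC libraries of the mESC state. In RA shNMC replicates 1 to 3 they made up 1.252, 1.172 and 1.076%, so as a share of counts the members did not fall together. Uqcrc1 went from 317, 332 and 355 CPM to 242, 241 and 254, a log2 change of -0.45 (SE 0.08, edgeR adjusted p = 0.000128). Ndufv1 went from 203, 208 and 230 to 157, 152 and 180 CPM, a log2 change of -0.39 (edgeR adjusted p = 0.0017). In these scaled values the 2 states did not overlap in either gene.

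Atp5a1 went from 1279, 1351 and 1286 to 1102, 1074 and 1077 CPM (log2 -0.27, edgeR adjusted p = 0.00309). Ndufb6, in the membrane arm of complex I, went from 63.7, 63.9 and 60.4 to 50.4, 50.6 and 42.1 CPM (log2 -0.39, edgeR adjusted p = 0.00283). Cox5a, a complex IV subunit, was at 251, 262 and 226 CPM before and 203, 189 and 157 after RA (log2 -0.43, SE 0.13, edgeR adjusted p = 0.00677), and it lost the call without RA shNMC replicate 3 (0.0678). Atp5b was 2556, 2747 and 2523 CPM against 2385, 2286 and 2285, a log2 change of -0.17 (edgeR adjusted p = 0.0345). That call was lost without any shNMC replicate of the mESC state and without RA shNMC replicate 2 or 3. The lower RA values of Atp5a1 and Atp5b rest on the TMM scaling. As shares of the unscaled gene counts, neither gene had all its RA values below its mESC values. Cox4i1 had a log2 change of -0.01, at 380 to 430 CPM before and 391 to 422 CPM after RA.

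In all, 3 of 7 complex I core genes fell, and 3 supernumerary genes fell while Ndufa2 and Ndufb7 rose. Of the complex III genes 2 of 8 fell (Uqcrc1 and Uqcrq). So did 1 of 10 common complex IV genes, 2 of 5 F1 genes and the linker gene Cox7a2l. These counts stand beside 24.1% of all genes called lower and 27.3% called higher. Uqcrq lost the call without shNMC replicate 1 or 3 of the mESC state or RA shNMC replicate 3 (edgeR adjusted p up to 0.078), and Ndufa2 without RA shNMC replicate 1 (0.0682). Ndufb7 lost it without replicate 1 or 2 of either state (up to 0.184). Leaving out 1 library gave 10 to 16 calls, with 10 without shNMC replicate 1 of the mESC state and 11 without its replicate 2 or RA shNMC replicate 2. All 10 pluripotency markers fell in the same comparison, 7 of 9 trophectoderm markers rose, and of 9 fibroblast markers 4 rose and 1 fell. Their part in the members' changes was not tested.

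The hairpin groups gave their own RA comparisons. With shMed12, 2 members rose and 9 fell, 13.3% beside 37.1% of all genes (19.6% higher, 17.5% lower). A fit of these groups alone called 25, again without the share of all genes in that fit. Leaving out 1 library gave 4 to 12 calls, with 4 without mESC shMed12 replicate 1, 5 without RA shMed12 replicate 3 and 7 without RA shMed12 replicate 2. Ndufaf4 fell most among the genes above 5 CPM, from 71.9, 74.3 and 57.0 to 44.8, 36.0 and 41.6 CPM (log2 -0.73, edgeR adjusted p = 0.000367). Ndufs1 fell from 254, 259 and 248 to 209, 198 and 211 CPM (log2 -0.30).

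With shCdk8, 2 members rose and 28 fell, 36.1% beside 51.7% of all genes (26.7% higher, 25.1% lower). Here the median log2 change was -0.19 against 0.01 over all genes. Of the unscaled gene counts, the members made up 1.15, 1.05 and 1.03% in the mESC state and 1.17, 1.05 and 1.04% in RA. Equal replicate numbers deviated together in these groups too, and the fit with the block called 62 members (10 higher, 52 lower), beside 77.8% of all genes in it. Without mESC shCdk8 replicate 1 the count was 14, and without RA shCdk8 replicate 3 it was 19. Cox5a fell from 313, 267 and 215 to 173, 159 and 139 CPM, a log2 change of -0.75 (SE 0.13, edgeR adjusted p = 3.81e-05). Uqcrc1 fell from 316, 296 and 322 to 217, 203 and 234 CPM (log2 -0.51, edgeR adjusted p = 2.65e-05). The falls covered 3 of 7 complex I core genes, 8 supernumerary genes, 3 of 4 Ndufaf genes, 3 complex III, 4 complex IV and 5 ATP synthase genes.

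All 14 genes that fell with RA in shNMC cells were among the 28 that fell in shCdk8 cells, 100% of the first list and 50% of the second. With shMed12 the shNMC list shared 6 genes (Atp5b, Cox5a, Ndufa10, Ndufb5, Ndufs1 and Uqcrc1), 42.9% of the 14 and 66.7% of the 9. These comparisons use separate libraries. Here too the overlap over all genes was not counted, so the shares are not shown to be particular to the members.

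The tissue isoforms of complex IV were mostly low, and several changed by more than the common subunits did. Cox8c, the testis form of Cox8, was at 0.457, 0.393 and 0.541 CPM with shNMC in the mESC state and 2.14, 2.11 and 1.17 CPM in RA, a log2 change of 1.97 (SE 0.40, edgeR adjusted p = 0.000343). The common form Cox8a was at 87.5, 91.2 and 95.2 CPM in the mESC state. Cox8c also rose with RA in shMed12 cells (log2 1.85) and in shCdk8 cells (log2 2.06). Compared with shNMC it fell with shMed12 in the mESC state (log2 -1.45, SE 0.52, edgeR adjusted p = 0.029) and in RA (log2 -1.57, edgeR adjusted p = 0.00234). The mESC call rests on 22 reads against 64 and was lost on leaving out shMed12 replicate 2, shMed12 replicate 3, shNMC replicate 1 or shNMC replicate 3 (up to 0.143).

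Cox6a2, the heart and skeletal muscle form of Cox6a, was almost absent with shMed12. It had 3 reads in the 3 shMed12 libraries and 71 in the 3 shNMC libraries of the mESC state, so shNMC was 22.4 times higher after scaling for depth, with a 95% interval of 7.35 to 111 that covers counting error only. In RA it had 10 reads against 210, a ratio of 20.7 (11.04 to 43.8). In single libraries the level was 0.602, 0.138 and 0.86 CPM with shNMC, and 0.0462, 0.0257 and 0 CPM with shMed12. A count of 0 allows up to 3 reads, which is 0.0464 to 0.0828 CPM in libraries of this depth. In RA it was at 0.947, 1.03 and 1.84 CPM with shNMC and 0.0579, 0.0357 and 0.0897 with shMed12. Its rise with RA in shNMC cells (log2 1.28, edgeR adjusted p = 0.0382) was lost with DESeq2, and without shNMC replicate 1 or 2 of the mESC state or RA shNMC replicate 3 (up to 0.186).

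Cox7a1, another heart and muscle form, rose with RA from 7.33, 7.75 and 7.82 to 12.9, 11.9 and 12.4 CPM in shNMC cells (log2 0.70, SE 0.15, edgeR adjusted p = 0.000524). It rose with shMed12 by 0.71 and with shCdk8 by 0.43 on the same scale, the last of these being lost without mESC shCdk8 replicate 2 or RA shCdk8 replicate 1 or 3 (edgeR adjusted p up to 0.0809). The common form Cox7a2 was far higher, at 157 to 190 CPM in the mESC state and 145 to 187 CPM in RA with shNMC. Cox6b2, the testis form of Cox6b, was the most abundant isoform, at 35.9, 24.8 and 41.0 CPM with shNMC and 22.8 to 25.5 CPM with shMed12. The groups overlapped, and its fall (log2 -0.49, edgeR adjusted p = 0.0266) was lost on leaving out shMed12 replicate 1, shMed12 replicate 2, shNMC replicate 1 or shNMC replicate 3 (up to 0.208).

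**Figure D5:**
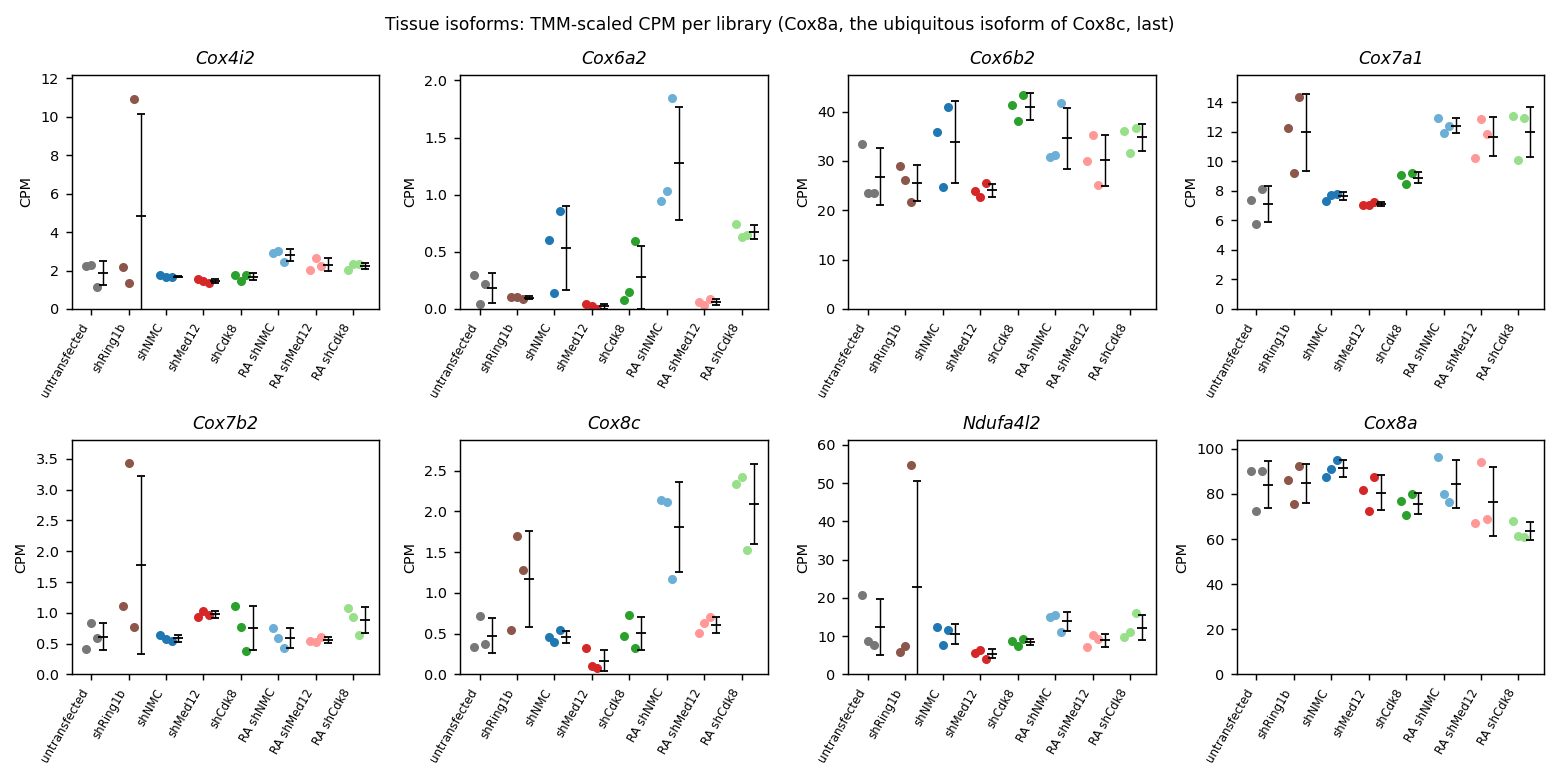
CPM in each library (points) with group mean and SD (bar) for 6 tissue isoforms of complex IV, the hypoxia-linked Ndufa4l2 and the common form Cox8a. Cox8c and Cox7a1 are higher in RA than in the mESC state within each hairpin, Cox6a2 lies near 0 in both shMed12 groups, and shRing1b replicate 3 stands alone for Cox4i2 (10.9 CPM) and Ndufa4l2 (54.8 CPM).

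Knockdown of Ring1b, a Polycomb ubiquitin ligase, was compared with untransfected cells. No common subunit passed the test: 3 members rose and none fell, 3.61% beside 15.1% of all genes (9.68% higher, 5.42% lower), and all 3 were complex IV tissue isoforms. Cox7a1 was at 7.38, 5.75 and 8.13 CPM in control cells and 12.3, 9.23 and 14.4 CPM with shRing1b, without overlap (log2 0.76, SE 0.15, edgeR adjusted p = 0.00261). Cox7b2, a testis form, was at 0.408, 0.838 and 0.594 against 1.11, 3.44 and 0.772 CPM (log2 1.52, edgeR adjusted p = 0.0271). The Cox7b2 groups overlapped, and the highest value was that of shRing1b replicate 2. How this call fares without single libraries was not examined. Cox4i2, a form known from lung, was at 2.23, 2.27 and 1.15 against 2.19, 1.34 and 10.9 CPM (log2 1.37, SE 0.46, edgeR adjusted p = 0.0492), so its rise rests on the library labelled shRing1b replicate 3. Without that library the log2 change was -0.086 (edgeR adjusted p = 0.851).

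Without shRing1b replicate 3, 2 members rose and 2 fell. The count was 1 without control replicate 3 and 6 without shRing1b replicate 1. DESeq2 called 5, and a fit of the 2 groups alone called 0 members, with 3 at an unadjusted p under 0.05. These counts are given without the share of all genes. Ndufa4l2, which replaces the complex IV subunit Ndufa4 in hypoxia, was at 5.83, 7.49 and 54.8 CPM with shRing1b and 20.8, 8.62 and 7.54 in control cells, and did not pass (edgeR adjusted p = 0.285). Summed extraembryonic endoderm markers were 1152 CPM in shRing1b replicate 2 and 178 and 52.0 in the others, against 102 to 160 in control cells. Summed trophectoderm markers were 48.9 to 112 CPM with shRing1b and 18.3 to 28.9 in control cells, with 8 of 9 rising, and fibroblast markers were 22.3 to 48.6 against 16.6 to 25.1 CPM, with 4 of 9 rising. The part of these markers in the isoforms' values was not tested.

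Against the shNMC cells, shRing1b cells had 6 members higher and 4 lower, 12% beside 20.2% of all genes (12.9% higher, 7.36% lower). A fit of the 2 groups alone called 1. This contrast coincides with the division in sequencing depth and multiple alignments, and the knockdown and that division cannot be told apart in it. The lowest count on leaving out 1 library was 3, without shNMC replicate 1; it was 6 without shNMC replicate 2, and 7 without shRing1b replicate 3. Cox7a1 was again higher (log2 0.65, edgeR adjusted p = 0.00446). Uqcr11 was higher by 0.45, while shNMC against untransfected cells gave -0.27 for it, with shNMC shared by both contrasts. The first of these was a call that was lost without shNMC replicate 1 or shRing1b replicate 2 (edgeR adjusted p up to 0.0563) and, like that of Cox7a1, in the fit of the 2 groups alone.

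Atp5j2, which encodes the f subunit in the membrane part of ATP synthase, divided the libraries that way. It was at 45.8, 57.0 and 56.3 CPM in untransfected cells and 51.3, 43.9 and 48.4 with shRing1b. With shNMC it was at 100, 111 and 109 CPM, with shMed12 106, 101 and 111, and with shCdk8 116, 104 and 106. In RA it was at 111, 107 and 98.5 CPM with shNMC, 90.1, 96.5 and 99.4 with shMed12 and 111, 90.2 and 96.9 with shCdk8. The 6 untransfected and shRing1b libraries thus spanned 43.9 to 57.0 CPM and the other 18 spanned 90.1 to 116 CPM, and the ratio of the medians was 0.475. The gene was singled out with this pattern known, so these values are a description.

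No other tested member had all 6 of those libraries on one side of the other 18, which makes 1 of 83, or 1.2%, beside 0.129% of all genes (0.0614% above and 0.0676% below). The pattern held for Atp5j2 under median-ratio scaling and under total gene count. Leaving out 1 library cannot make separate ranges overlap, apart from slight shifts in scaling, so those runs are no check of it. Untransfected and shNMC cells differ by a hairpin without a target and by the division in depth and multiple alignments. Between them Atp5j2 was the only gene of 16280 called, 0.00614% (log2 1.01), and a fit of the 2 groups alone lost that call. Between shRing1b and untransfected cells Atp5j2 had a log2 change of -0.15. The gene was singled out by how these groups lie, so both values describe it and do not test it. The part that depth, multiple alignments or the share of repeated coding sequence (15.8%, in 1 pseudogene) had in this was not tested.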

How the data were processed

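The authors deposited raw counts of reads per gene for each library, as whole numbers. Listed per the submitters' processing notes, without roles, are DESeq2 1.6.3, HTSeq 0.6.1p1, SAMtools 1.2, STAR 2.3.1z13, bcl2fastq 1.8.4 and the mm9 build. Annotation and strand option: not given in the sources used here. Per the labels' protocols the libraries were poly-A selected and strand-specific, read at 50 bases. The 5 entries naming no gene were left out of library sizes. As a percent of everything the files count, no feature took 8.7 to 17.3%, ambiguous reads 0.111 to 0.197% and multiple alignments 20 to 49.1%.

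All 24 libraries of the 8 groups were fitted together (16 residual degrees of freedom) by edgeR 4.0.16 (R 4.3.3), using TMM scaling, a robust quasi-likelihood test on the 16280 genes that filterByExpr kept of 19916 with a count, and Benjamini-Hochberg adjustment over all of them (threshold 0.05). CPM are TMM-scaled. SE was computed as the size of the log2 change over the root of the F statistic. The fit was tested on simulated data. The alternatives were DESeq2 1.42.0, median-ratio scaling, no low-count filter, only the groups compared, a replicate block, and leaving out each library. Scaling by total gene count was run only for the division between the untransfected and shRing1b libraries and the rest. Intervals and count floors (3 reads) cover counting error only.

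Members, lists and rules were chosen with earlier results of these data known. Named were Atp5j2, the up to 5 largest rises and falls among called members with at least 5 CPM per comparison, a core set and the isoform groups; others were named after their values were seen. Exon lengths, shared 50-base stretches and coding starts come from GENCODE M21 and promoters from RefSeq, both on GRCm38; no coordinates were joined to mm9. Same-numbered replicates deviated together (every correlation over 0.1) for shCdk8 against shNMC in RA (0.666, 0.433 and 0.682) and RA against mESC in shCdk8 cells (0.572, 0.337 and 0.532), a hint from the data, since the labels say nothing of what a number shares. No 2 replicates agreed within sampling noise. The values of 1 member are not reported here and it is not drawn by name; counts over the members include it.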

Additional observations from a re-analysis of the deposited data

How the results depend on the processing

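Counts of called members moved with the replicate block, with the libraries in the fit and with the tool. With only the groups of a comparison, 29 members were called for shMed12 in the mESC state, 3 for shCdk8 in the mESC state, 25 for RA with shMed12, 0 for shRing1b against control, 1 for shRing1b against shNMC and 0 for shNMC against control. With DESeq2 the count was 2 for shCdk8 in the mESC state and 5 for shRing1b against control. With the replicate block it was 38 for shMed12 and 7 for shCdk8 in the mESC state, 43 for shMed12 and 45 for shCdk8 in RA, 34 for RA with shMed12, 62 for RA with shCdk8, 0 for shRing1b against control, 0 against shNMC, and 3 for the interaction of shMed12 with RA. Outside the 2 comparisons whose numbers pair the libraries, the replicates share only a number. In the blocked fits, 50% of all genes were called for shCdk8 in RA and 77.8% for RA with shCdk8. The other settings are given without the share of all genes, so their counts show only that the number of calls moved.

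Leaving out 1 library gave 10 to 15 calls for shMed12 and 1 to 1 for shCdk8 in the mESC state, 13 to 28 and 1 to 7 in RA, 10 to 16 for RA with shNMC, 4 to 12 with shMed12 and 14 to 30 with shCdk8, 1 to 6 for shRing1b against control, 3 to 10 against shNMC, 1 to 1 for shNMC against control, and 0 to 0 for both interactions. Of 3445 values of single genes under an alternative, 3222 kept direction and side of the threshold, 158 lost the call, 64 gained one and 1 reversed: Cox4i2 for shRing1b against control, which ranged from -0.086 without shRing1b replicate 3 to 1.81. The cause of these shifts was not tested. The counts on leaving out 1 library are also given without the share of all genes. Neither median-ratio scaling, the only other scaling run on the comparisons, nor a missing filter moved a count by over 1.5 times. How the calls behave under total gene count was not tested. The 6 shallower libraries have a floor of 0.0891 to 0.12 CPM for a count of 0, which limits Cox6a2 and Cox7b2 there.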

Other observations

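Genes that work beside the subunits were counted in the same fit. With shMed12 in the mESC state, where 20.6% of all genes were called higher and 19.9% lower, 3 of 4 complex II genes fell, led by the iron-sulfur subunit Sdhb, at 147, 141 and 160 CPM with shNMC and 92.8 to 107 with shMed12 (log2 -0.59, edgeR adjusted p = 2.35e-06). Sdhb was also lower with shCdk8, at 116, 107 and 117 CPM (log2 -0.40, edgeR adjusted p = 0.00502). Cyct, the testis cytochrome c, fell by 1.37 on the log2 scale. Of 25 assembly factors 2 rose and 6 fell (24%), with Atpaf1, which assembles the F1 head, at -0.72 and Ecsit, of complex I assembly, at -0.45. Of 16 nuclear regulators 1 rose (the mitochondrial DNA polymerase Polg, 0.55) and 2 fell (12.5%: Gabpa, -0.52, and Ppargc1b, -0.65).

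With RA in shNMC cells, where 27.3% of all genes were called higher and 24.1% lower, 12 of 25 assembly factors fell (48%) and none rose (median log2 -0.32), among them the copper carrier Sco1 (-0.83) and Foxred1 (-0.77), and 8 of 16 regulators fell (50%), among them the coactivators Ppargc1b (-1.58) and Pprc1 (-0.86), with a list median of -0.30. The 1 regulator that rose was the coactivator Ppargc1a, with 2 reads in the 3 shNMC libraries of the mESC state and 70 in those of RA. Among 16 genes of the citric acid cycle and pyruvate dehydrogenase, 5 fell (31.2%) and 1 rose. Pdha1, the alpha subunit of pyruvate dehydrogenase, was at 567, 602 and 533 CPM with shNMC in the mESC state and 269, 271 and 266 in RA, but 468, 468 and 440 in RA with shMed12. Its RA change differed between shMed12 and shNMC (log2 0.64, edgeR adjusted p = 0.0243), and so did that of the beta subunit Pdhb (-0.45, 0.0163).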
